A study of Mus musculus with 6 samples.

Results

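The genes Rpl7, Rpl7a and Rpl7l1 were followed through the maturation of mouse retinal ganglion cells (RGCs), the neurons whose axons form the optic nerve. Members were all rows of the deposited isoform table with one of these 3 gene symbols, out of 17027 symbols in all. They comprised 15 of 50829 listed isoforms: 7 of Rpl7, 7 of Rpl7a and 1 of Rpl7l1. The cells came from wild-type mice of the strain C57/6NCrl and were taken on embryonic day 18 (called E18), on postnatal day 5 (called P5) or at 8 weeks (called Adult), each age having 2 libraries, with no treatment, allele or injury in any group. RGCs were captured on antibody to Thy1 after antibody panning had removed macrophages, and the sample protocol, but not the series description, also names removal of amacrine cells. RNA with a polyA tail was sequenced as paired reads of 100 bases. Values are FPKM, the fragments assigned to an isoform per unit of its length and scaled to the number of mapped fragments, so that levels can be compared between genes. A gene level is the sum of the FPKM of its isoforms. FPKM carry no read counts, and the depth of each library is therefore unknown. The P5 columns share one header, and the P5 libraries are called a and b.

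Rpl7 and Rpl7a encode proteins of the large subunit of the cytosolic ribosome; despite their names they belong to different protein families. Both proteins contact ribosomal RNA and are needed in every cell that makes protein. Ribosomes are put together in the nucleolus, where assembly factors hold immature large subunits before they are exported. Rpl7l1 encodes a relative of the Rpl7 protein that binds precursors of the large subunit. The title of the series names Rpl7 and Rpl7a as falling during development, so their direction here is not independent evidence of that fall.

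The Adult libraries differed from the younger ones in the markers of cell types. The 18 RGC markers, all listed, summed to between 4830 and 5610 FPKM at E18 and P5 and to 635 and 430 FPKM in Adult replicates 1 and 2. The 14 rod photoreceptor markers summed to between 5.96 and 12.4 FPKM in the younger libraries, with Cnga1 or Gngt1 listed at 0 in each of them, and to 6380 and 783 FPKM in Adult. The 8 cone markers summed to between 1.42 and 6.17 FPKM in the younger libraries, with at least 1 of Opn1mw, Opn1sw, Pde6c and Pde6h listed at 0 in each, and to 86.2 and 82.2 FPKM in Adult. The 10 amacrine markers summed to between 349 and 433 FPKM in the younger libraries and to 1620 and 2170 FPKM in Adult. The 9 listed of 10 Müller glia and astrocyte markers went from between 206 and 244 FPKM to 1510 and 1810 FPKM. The medians of these lists rose further in proportion. The amacrine median went from between 0.229 and 2.9 FPKM to 117 and 131 FPKM. The Müller glia and astrocyte median went from between 2.02 and 4.95 FPKM to 89.4 and 91.1 FPKM. The 12 progenitor markers summed to 133 FPKM in E18 replicate 1 and 12.3 FPKM in E18 replicate 2. They summed to 9.86 and 11.5 FPKM at P5 and to 38.0 and 34.5 FPKM in Adult. The markers did not move as one: of the 11 tested, 5 had a negative log2 change from P5 to Adult. Top2a was listed at 0 in both Adult libraries, and Mki67 was at 0.000102 FPKM in Adult replicate 1. The 4 listed of 8 endothelial and pericyte markers summed to between 1.9 and 9.62 FPKM in the younger libraries and to 32.2 and 44.2 FPKM in Adult. The 10 bipolar cell markers summed to 259 and 255 FPKM at E18, then 131 and 149 FPKM at P5, then 160 and 141 FPKM in Adult. Most of these markers took another course than the sum. Their median was 1.07 and 0.237 FPKM at E18, then 0.197 and 0.119 FPKM at P5, then 14.5 and 12.6 FPKM in Adult. Of the 9 tested, 8 were higher and 1 lower in Adult than at either younger age, by the test described below. These levels move with age in the same libraries as the members, and their part in the results was not tested. In such bulk samples, fewer cells of a type and less RNA per cell cannot be told apart.

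In the GENCODE M21 annotation of GRCm38, Rpl7 spans chr1:16101295-16104662 (minus strand), Rpl7a spans chr2:26910764-26913318 (plus strand) and Rpl7l1 spans chr17:46773907-46782672 (minus strand). Each isoform is called here by its length in bases. The class code "=" marks an isoform equal to an annotated transcript, and "j" marks one that shares at least one splice junction with an annotated transcript but differs elsewhere. Of the 15 isoforms, 11 carried "=", and the listed length of each equalled that of its annotated transcript. The main coding transcripts are Rpl7-201 (1163 bases, 7 exons), Rpl7a-201 (914 bases, 8 exons) and Rpl7l1-201 (2606 bases, 7 exons). The other annotated forms hold no coding sequence. For Rpl7 they are the retained-intron transcripts Rpl7-204 (1597 bases), Rpl7-202 (784 bases) and Rpl7-206 (1229 bases) and the processed transcript Rpl7-203 (421 bases). For Rpl7a they are the processed transcripts Rpl7a-204 (1043 bases), Rpl7a-205 (920 bases), Rpl7a-206 (593 bases) and Rpl7a-207 (356 bases). Rpl7-204 keeps 2 introns of the coding transcript, and Rpl7-202, Rpl7-206, Rpl7a-204, Rpl7a-206 and Rpl7a-207 keep 1 each. The remaining 4 isoforms are "j" forms nearest to the coding transcript of their gene: Rpl7 956 and 1876, and Rpl7a 1345 and 1032. Their exon positions were not read here.

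**Figure D1:**
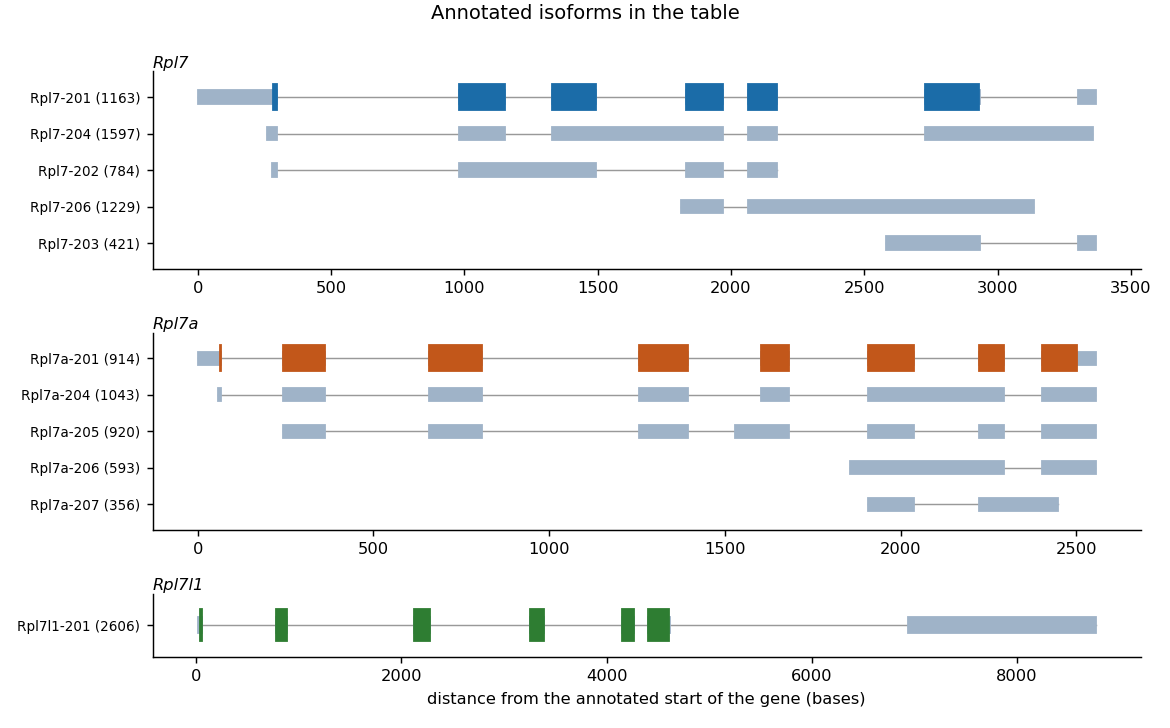
Exon maps of the 11 annotated isoforms in the table, drawn 5′ to 3′ by distance in bases from the annotated start of each gene. Tall coloured blocks are coding sequence, low grey blocks are noncoding exon sequence, lines are introns, and the listed length in bases stands after each name; 1 form per gene holds coding sequence.

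A relative can draw reads from its neighbour only where their sequences are alike, so the coding sequences were compared. Rpl7 and Rpl7l1 have 6 coding exons each, and exons 1, 4, 5 and 6 have equal coding lengths in both genes (14, 138, 110 and 206 bases). Paired without gaps, 7, 73, 66 and 110 of these bases were identical. The last coding exon without its stop codon is shown for both genes, in GRCm38 at chr1:16101731-16101936 (minus strand) for Rpl7 and chr17:46778066-46778271 (minus strand) for Rpl7l1. Capitals mark the 96 of 206 bases at which they differ, and the longest stretch of identical bases was 5.
Rpl7: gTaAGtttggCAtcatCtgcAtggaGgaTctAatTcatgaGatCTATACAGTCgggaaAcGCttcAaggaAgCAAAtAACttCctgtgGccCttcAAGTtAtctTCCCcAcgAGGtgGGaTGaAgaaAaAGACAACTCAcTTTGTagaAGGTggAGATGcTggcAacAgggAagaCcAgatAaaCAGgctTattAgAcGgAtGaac
Rpl7l1: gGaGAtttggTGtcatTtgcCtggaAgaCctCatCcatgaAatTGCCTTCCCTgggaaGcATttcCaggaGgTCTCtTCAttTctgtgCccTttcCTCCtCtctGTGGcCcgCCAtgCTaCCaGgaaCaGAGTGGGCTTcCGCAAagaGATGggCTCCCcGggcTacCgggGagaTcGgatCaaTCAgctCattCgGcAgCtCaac
Over the whole coding sequence (810 bases in Rpl7, 738 in Rpl7l1), 50.1% of 817 aligned positions were identical. The same measure was 45.0% for Rpl7 and Rpl7a and 42.3% for Rpl7a and Rpl7l1. None of the 3 pairs shared a stretch of 31 bases, with 0 in each pair.

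Ribosomal protein mRNAs often carry a run of pyrimidines (C and T) close to their start, an element through which growth signals set how well they are translated. Because it is a feature the members may share, the longest run of C and T in the last 60 bases before the start codon was taken from each coding transcript and is shown in capitals with 4 flanking bases. It lies at chr1:16104385-16104411 (minus strand) for Rpl7, chr2:26910789-26910817 (plus strand) for Rpl7a and chr17:46782635-46782644 (minus strand) for Rpl7l1, whose annotated sequence before the start codon is only 24 bases long.
Rpl7: gccaCCTTTCTCTCTTCTTTTCCggct
Rpl7a: acaaTTCCCTCTTCTTTCTTTCTCCagca
Rpl7l1: agcaCCggaa
The run was 19 bases long in Rpl7 and ended 10 bases before the start codon, and it was 21 bases long in Rpl7a and ended 14 bases before it. In Rpl7l1 the longest run was 2 bases. A run of at least 15 bases in this window, read along the mRNA, was found in 1.77% of 11836 genes. These were the listed protein-coding genes with at least 20 bases before the start codon. Such a run was found in 13 of 47 large subunit genes (27.7%), in 4 of 33 small subunit genes (12.1%) and in 0 of 50 assembly factors. These counts took the longest run over the coding transcripts of each gene in the basic set of the annotation. The run of each member came from its main coding transcript only. The window was placed by the start codon and not by the start of the mRNA, which is annotated 284 bases before it in Rpl7 and 64 in Rpl7a. Whether these runs are the element named above was not tested. These are matches of letters in an annotation and not a measurement of translation.

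All 3 genes were detected at every age, in the order Rpl7, Rpl7a and Rpl7l1, and the libraries of neighbouring genes in that order did not overlap at any age. Rpl7 stood at 475.6 and 516.8 FPKM in the embryonic libraries, then 301.2 and 286.8 FPKM at P5, then 144.6 and 140.6 FPKM in Adult. Rpl7a stood at 183.2 and 186.2 FPKM at E18, then 129.4 and 133.9 FPKM at P5, then 48.89 and 48.4 FPKM in Adult. For both genes the 3 ages formed separate steps, with no overlap between any ages. With 2 libraries per age such separation arises readily, and its share over all genes or isoforms was not counted. This limit holds for every statement on overlap between ages below. Rpl7l1 stood at 16.84 and 16.39 FPKM at E18, then 14.4 and 16.84 FPKM at P5, then 12.39 and 12.77 FPKM in Adult. Its P5 and E18 libraries overlapped, and both Adult libraries lay below the others.

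**Figure D2:**
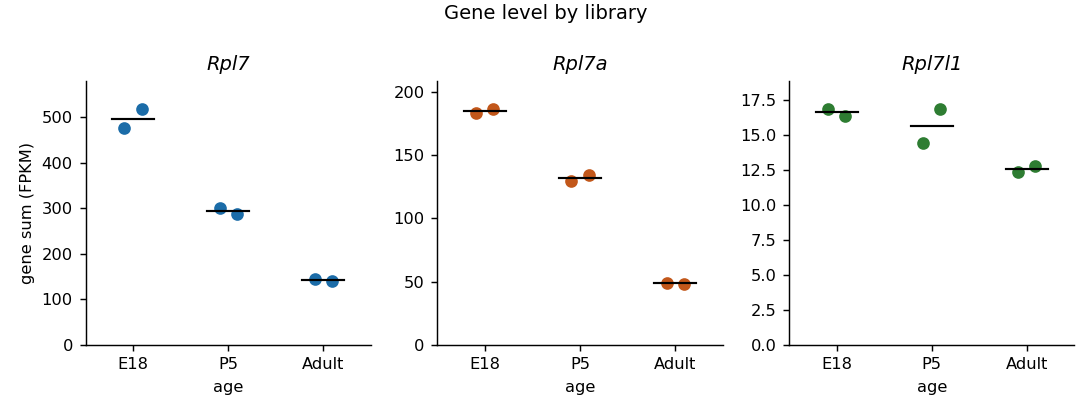
Gene level in FPKM (vertical axis, starting at 0) of Rpl7, Rpl7a and Rpl7l1 at each age. Points are libraries (2 per age) and bars their means; Rpl7 went from 496.2 to 294.0 to 142.6 FPKM, Rpl7a from 184.7 to 131.7 to 48.64 FPKM, and Rpl7l1 from 16.61 to 15.62 to 12.58 FPKM.

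From E18 to P5, Rpl7 and Rpl7a fell and Rpl7l1 was not called. Rpl7 went from 496.2 ± 29.1 to 294.0 ± 10.1 FPKM (SD, n = 2 libraries each), a log2 change of -0.75 (95% interval -0.98 to -0.52, limma adjusted p = 0.0124). Rpl7a went from 184.7 ± 2.1 to 131.7 ± 3.17 FPKM, a log2 change of -0.49 (-0.69 to -0.28, limma adjusted p = 0.0256). Rpl7l1 had 16.61 ± 0.324 and 15.62 ± 1.73 FPKM, a log2 change of -0.09 (-0.38 to 0.20, limma adjusted p = 0.67). Changes are in log2(FPKM + 1), which understates the change of low genes, and most so at levels of a few FPKM. A call is an adjusted p under 0.05 over all 14390 genes tested. Of those genes, 4.95% were called lower and 5.52% higher in this comparison. The P5 calls rested on few libraries. The adjusted p of Rpl7 was 0.0812 once P5 library a was left out, 0.108 without replicate 1 of E18 and 0.0875 without replicate 2 of E18, and that of Rpl7a lay between 0.0504 and 0.19 without any 1 of the 6 libraries, with every log2 change still negative.

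After P5, Rpl7 and Rpl7a fell again to Adult and Rpl7l1 was not called. Rpl7 reached 142.6 ± 2.78 FPKM in Adult, 48.5% of its P5 level (log2 change -1.04, limma adjusted p = 0.000264), and Rpl7a reached 48.64 ± 0.346 FPKM, 36.9% of its P5 level (-1.42, limma adjusted p = 8.1e-05). Rpl7l1 reached 12.58 ± 0.265 FPKM, 80.6% of its P5 level (-0.29, interval -0.58 to 0.01, limma adjusted p = 0.0817). In this comparison 33.7% of all genes tested were called lower and 26.2% higher, so that a call alone sets no gene apart. From E18 to Adult, Rpl7 was 3.48-fold lower (log2 change -1.79), Rpl7a 3.8-fold lower (-1.90) and Rpl7l1 1.32-fold lower (-0.38, interval -0.67 to -0.08), with limma adjusted p of 4.13e-05, 2.75e-05 and 0.0352, beside 34.4% of all genes called lower and 25.3% higher. The Rpl7l1 call was lost when any 1 E18 or Adult library was left out (adjusted p = 0.164 and 0.136 without E18 replicates 1 and 2, and 0.114 and 0.0901 without Adult replicates 1 and 2), with the protein-coding sum (0.87), with quantile normalization (0.0695) and with the replicate block (0.0518). Scaling moved the median of all genes from P5 to Adult from -0.07 to -0.76 (TPM) or 0.21 (scaled to the sum of protein-coding genes). Relative to that median, the P5 to Adult change of Rpl7 was -1.04 and -0.92 under these scalings, that of Rpl7a -1.42 and -1.30, and that of Rpl7l1 -0.26 and -0.19. The sign of the Rpl7l1 change itself was not kept: its log2 change from P5 to Adult was -1.02 with TPM and 0.02 with the protein-coding sum.

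The ratio of 2 members within a library does not depend on scaling. Rpl7 over Rpl7a was 2.60 and 2.78 at E18, then 2.33 and 2.14 at P5, then 2.96 and 2.91 in Adult. It was thus lowest at P5 and highest in Adult, with no overlap between ages. Rpl7 over Rpl7l1 was 28.2 and 31.5 at E18, then 20.9 and 17.0 at P5, then 11.7 and 11.0 in Adult. Rpl7a over Rpl7l1 was 10.9 and 11.4 at E18, then 8.99 and 7.95 at P5, then 3.94 and 3.79 in Adult. Both ribosomal protein genes thus came closer to the level of Rpl7l1 at each age. An exact permutation test over the 3 ages gave p = 0.0667 for each of the 3 ratios (0.0667 after Benjamini-Hochberg adjustment over them), which is the smallest p that 15 ways of splitting 6 libraries can give, so this test cannot reach 0.05 here.

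Rpl7 was carried by 2 forms, which together held between 93.7% and 98.2% of the gene in every library. Rpl7 956, the shorter "j" form, stood at 233.3 and 210.2 FPKM at E18, then 133.5 and 128.3 FPKM at P5, then 43.99 and 56.22 FPKM in Adult. Rpl7 1163, which is Rpl7-201, stood at 227.7 and 290.5 FPKM at E18, then 162.3 and 151.4 FPKM at P5, then 94.54 and 75.56 FPKM in Adult. The ages did not overlap in either form. The ratio of Rpl7 1163 to Rpl7 956 was 0.976 and 1.38 at E18, then 1.22 and 1.18 at P5, then 2.15 and 1.34 in Adult, with only Adult replicate 1 above 2. The 2 forms carry different start-site labels in the table. Rpl7 956 is 207 bases shorter than Rpl7-201, whose annotated start lies 284 bases before the start codon, and the RefSeq start of the gene lies 229 bases further in than that of GENCODE. Whether the shorter form begins there was not tested. It carries the code "j" and its exon positions were not read, so a later start need not be its only difference.

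From P5 to Adult, Rpl7 956 changed by -1.38 and Rpl7 1163 by -0.88 on the log2 scale (limma adjusted p = 0.0012 and 0.00859), and from E18 to Adult they changed by -2.13 and -1.59 (0.000308 and 0.0011). Without Adult replicate 2 or P5 library a, the P5 to Adult p of Rpl7 1163 was 0.052 and 0.0557. The share of Rpl7 956 in the gene was 49.0% and 40.7% at E18, then 44.3% and 44.7% at P5, then 30.4% and 40.0% in Adult. That of Rpl7 1163 was 47.9% and 56.2% at E18, then 53.9% and 52.8% at P5, then 65.4% and 53.7% in Adult. Adult replicate 1 set most of that difference, while Adult replicate 2 lay near the younger libraries. Neither share was called: from E18 to Adult that of Rpl7 956 changed by -9.65 percentage points (interval -22.81 to 3.52, limma adjusted p = 0.262) and that of Rpl7 1163 by 7.53 (-6.42 to 21.49, adjusted p = 0.387). These intervals include both no change and shifts of over 20 points.

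The other 5 forms of Rpl7 were minor and summed to between 5.372 and 16.12 FPKM. The retained-intron form Rpl7 784 stood at 3.984 and 3.393 FPKM at E18, then 1.554 and 1.483 FPKM at P5, then 1.668 and 1.811 FPKM in Adult. Its E18 values lay above all others, and its log2 change from E18 to Adult was -0.77 (limma adjusted p = 0.0173), a call lost without replicate 1 of Adult, replicate 1 of E18 or replicate 2 of E18 (0.0583, 0.126 and 0.0791) and when scaled to the protein-coding sum (0.0747). Rpl7 1597, which keeps 2 introns, ranged from 1.109 to 4.334 FPKM, and its extremes in Adult were 1.109 and 3.581 FPKM. Rpl7 1876 stood at 3.239 FPKM in Adult replicate 1 and 0.6137 FPKM in Adult replicate 2, a wider gap than between any younger libraries. Rpl7 1229 and Rpl7 421 were listed at 0 in P5 library a and Adult replicate 1 and at most at 4.048 FPKM elsewhere. Rpl7 1597, 1876 and 421 were tested and not called in any comparison, and Rpl7 1229 was too low for the test.

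Rpl7a was led at every age by its coding form Rpl7a 914, but this form held less of the gene in Adult. Rpl7a 914 stood at 153.8 and 160.5 FPKM at E18, then 114.5 and 115.7 FPKM at P5, then 31.55 and 35.41 FPKM in Adult. The log2 change of Rpl7a 914 in Adult was -1.75 against P5 and -2.20 against E18 (limma adjusted p = 0.000286 and 0.000144). The other 6 forms together stood at 29.43 and 25.66 FPKM at E18, then 14.91 and 18.21 FPKM at P5, then 17.33 and 12.99 FPKM in Adult. Their summed Adult values overlapped those at P5. In percent of the E18 mean, Rpl7a 914 was at 73.2 ± 0.54 at P5 and 21.3 ± 1.74 in Adult (SD, n = 2), and the other 6 forms at 60.1 ± 8.47 and 55.0 ± 11.1. For Rpl7 the picture was less even. Its forms 956 and 1163 were at 59.0 ± 1.66 and 60.5 ± 2.97 percent at P5, above its other 5 forms at 40.5 ± 8.09 percent. In Adult they were at 22.6 ± 3.90 and 32.8 ± 5.18 percent, and the other 5 forms at 48.1 ± 12.9 percent, with 39.0 percent in Adult replicate 1 beside 36.5 percent for Rpl7 1163 in that library. These differences between forms were not tested.

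**Figure D3:**
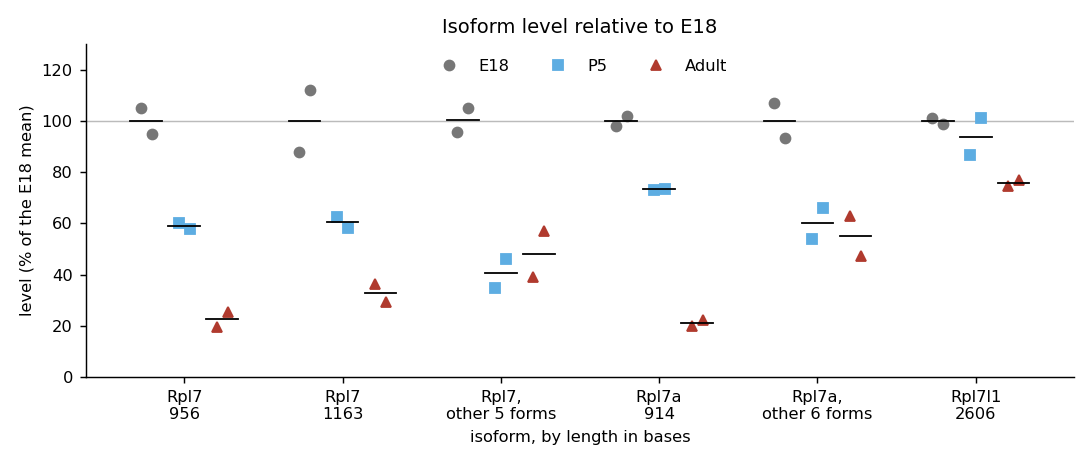
Level of each leading isoform, and of the summed other isoforms, in percent of its own E18 mean (vertical axis, starting at 0). Points are libraries by age, black bars means of 2 libraries; in Adult, Rpl7a 914 was at 20.1 and 22.5 percent while the other 6 forms of Rpl7a were at 62.9 and 47.2 percent.

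As a share of the gene, Rpl7a 914 made up 83.9% and 86.2% at E18, then 88.5% and 86.4% at P5, then 64.5% and 73.2% in Adult. Both Adult libraries lay below all younger ones. The share changed by -18.59 percentage points from P5 to Adult (interval -27.56 to -9.61, limma adjusted p = 0.0319) and by -16.22 from E18 to Adult (-25.20 to -7.25, adjusted p = 0.0454). The share of Rpl7a 1043, the processed transcript Rpl7a-204 with 1 kept intron, was 4.60% and 3.68% at E18, then 2.78% and 5.15% at P5, then 10.5% and 9.78% in Adult. It rose by 6.19 points from P5 to Adult (adjusted p = 0.0462), and its difference from E18 to Adult of 6.01 points had an adjusted p of 0.053. The share of the "j" form Rpl7a 1032 was 4.44% and 3.07% at E18, then 4.42% and 3.77% at P5, then 9.33% and 9.01% in Adult, and rose by 5.07 points from P5 (adjusted p = 0.0491) and by 5.42 points from E18 (adjusted p = 0.0461). In FPKM the means of these forms were not higher in Adult: Rpl7a 1043 had 5.242 ± 2.33 FPKM at P5 and 4.938 ± 0.291 FPKM in Adult, and Rpl7a 1032 had 5.386 ± 0.479 and 4.461 ± 0.142 FPKM (SD, n = 2), neither of them called (limma adjusted p = 0.959 and 0.396).

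Of the 8 tested shares of the members, 1 was called lower and 2 higher from P5 to Adult, beside 6.82% lower and 8.54% higher among all 38813 isoform shares tested. For Adult against E18, 1 was lower and 1 higher, beside 6.07% and 7.18%. Between E18 and P5, limma called 0 of the 8 (0 at an unadjusted p under 0.05) and 0% of all shares, although 4402 of them had an unadjusted p under 0.05. The share calls of Rpl7a were close to the threshold. The adjusted p for Rpl7a 914 from P5 to Adult lay between 0.0882 and 0.138 without any 1 of the E18 and P5 libraries, and from E18 to Adult it was 0.0553 without Adult replicate 1 and between 0.089 and 0.219 without any 1 of the E18 and P5 libraries. The calls of Rpl7a 1043 and Rpl7a 1032 from P5 to Adult were lost without any 1 of the 6 libraries (adjusted p between 0.0622 and 0.168, and between 0.0502 and 0.153) and with only the 2 ages fitted (0.127 and 0.131). That of Rpl7a 1032 from E18 to Adult remained without Adult replicate 2 (0.0495) and was lost without any other library (between 0.0604 and 0.241), with only the 2 ages fitted (0.0877) and with the replicate block (0.181).

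**Figure D4:**
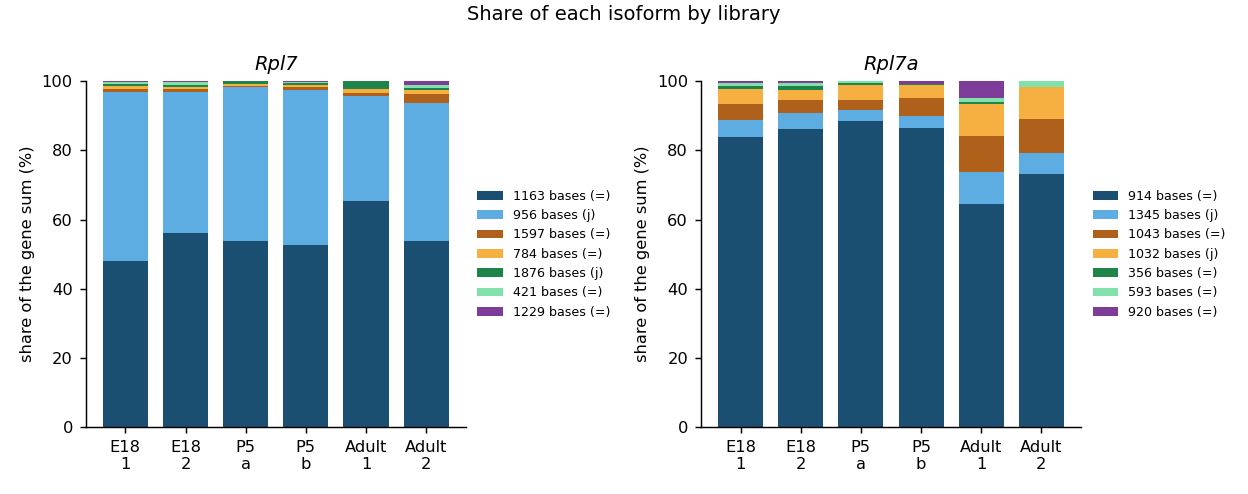
Share of each isoform in its gene sum, in percent (vertical axis), for Rpl7 and Rpl7a in the 6 libraries; colours are isoforms named by length in bases and class code. Rpl7a 914 (bottom, dark) held 83.9% to 88.5% at E18 and P5 and 64.5% and 73.2% in Adult, and the 2 leading forms of Rpl7 held at least 93.7% in each library.

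The minor forms of Rpl7a had different courses. Rpl7a 1345, a "j" form, stood at 8.97 and 8.395 FPKM at E18, then 4.212 and 4.623 FPKM at P5, then 4.453 and 2.982 FPKM in Adult, and its log2 change from E18 to Adult was -1.05 (limma adjusted p = 0.0083). That call was lost without E18 replicate 1 or 2 (adjusted p = 0.0657 and 0.0571). Its share had a difference of 4.28 points from P5 to Adult (adjusted p = 0.0975) and reached 9.11% in Adult replicate 1 and 6.16% in Adult replicate 2. Rpl7a 920 was at 2.292 FPKM in Adult replicate 1 and listed at 0 in Adult replicate 2. Rpl7a 356 stood at 1.432 and 2.158 FPKM at E18 and at 0.2885 FPKM and 0 in Adult, and Rpl7a 593 at 1.252 and 1.754 FPKM at E18 and 0.5938 and 0.9132 FPKM in Adult. These 3 forms had a mean under 1 FPKM and their levels were not tested.

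Over all members, 11 isoform levels were tested and 4 fell short of the 1 FPKM mean. From E18 to P5 limma called 0 of the 11, with 6 at an unadjusted p under 0.05 and all 11 log2 changes negative, beside 1.63% of all isoforms called. From P5 to Adult, 3 were called lower and 0 higher (24.1% of all isoforms were lower and 19.2% higher), and from E18 to Adult 5 were lower and 0 higher (26.8% and 17.9%). For Rpl7l1 the single listed form is the whole gene, and its log2 change of -0.38 from E18 to Adult, called among genes, had an adjusted p of 0.0651 among the 34941 isoforms.

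Annotated pseudogenes, which are mostly intronless copies, can share reads with their parent gene. Of the windows of 100 bases in Rpl7a-201, 73.5% occur identically in transcripts of other genes on either strand, and all 599 of these windows occur in pseudogenes. The share was 28.2% for Rpl7-201 and 1.68% for Rpl7l1-201, and no window was shared between the 3 members. Among the minor forms it lay between 12.1% (Rpl7-202) and 60.9% (Rpl7a-205). Pseudogenes that hold at least 20% of the 31-base stretches of the coding transcript numbered 7 for Rpl7, 38 for Rpl7a and 0 for Rpl7l1. Of these, 2 for Rpl7a and 0 for Rpl7 were listed by the authors. Rpl7a-ps5 stood at 3.011 and 3.322 FPKM at E18, then 1.996 and 2.615 FPKM at P5, then 0.9504 and 0.9177 FPKM in Adult. Rpl7a-ps11 stood at 2.68 and 2.305 FPKM at E18, then 1.755 and 1.885 FPKM at P5, then 0.823 and 0.732 FPKM in Adult. Both were lower at each later age, and their sum was between 2.9% and 3.63% of the Rpl7a level in every library. How the authors' counting divided shared reads is not given in the sources used here. The levels of Rpl7a and Rpl7, of their isoforms and of the ratios formed from them are uncertain to that extent.

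Rpl7 and Rpl7a were set beside the other proteins of the large subunit, of which 46 of 47 were listed and tested. From E18 to P5, 30 fell and 16 were not called, with a median log2 change of -0.47 beside -0.03 for all genes. Of all genes, 4.95% were called lower in that comparison. Leaving out 1 library reduced the 30 to 0 if it was P5 library a or either of the E18 replicates, to 5 without P5 library b and to 10 without Adult replicate 1 or 2, while the median stayed between -0.48 and -0.47. The 30 were 13 with TPM, 10 with quantile normalization and 11 when only E18 and P5 were fitted. Of all genes, 712 were called lower as deposited, and 466, 508 and 298 in these fits. Fewer of all genes were also called lower with any 1 library left out. In Adult all 46 were called lower than at P5 and than at E18, with medians of -1.21 and -1.78 beside -0.07 and -0.11 for all genes. Of all genes, 33.7% and 34.4% were called lower in these comparisons. With quantile normalization the 46 became 43 against P5 and 45 against E18, and with the protein-coding sum 45 against P5. Of all 14390 genes, 4561, 4700 and 3347 were called lower in these fits. In level, Rpl7 ranked between 6 and 14 from the highest in the 6 libraries, and Rpl7a between 39 and 43.

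By change between E18 and P5, Rpl7 ranked 3 from the lowest, between Rpl29 (-0.77, limma adjusted p = 0.0559) and Rpl34 (-0.74, adjusted p = 0.0119), and Rpl7a ranked 22, between Rpl35a (-0.50) and Rpl15 (-0.48), both of which fell. In the change to Adult from P5, the order of the members was turned. Rpl7a ranked 16, between Rpl21 (-1.46) and Rpl6 (-1.39), and Rpl7 ranked 32, next to Rpl27 (146.3 to 72.67 FPKM on average). Between E18 and Adult both lay near the middle, Rpl7a at rank 16 between Rpl17 (-1.95) and Rpl6 (-1.90), and Rpl7 at rank 21 between Rpl37 (-1.80) and Rpl21 (-1.79). Each member differed from the neighbours named here by less than 0.09, the standard error of its own change in every comparison.

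**Figure D5:**
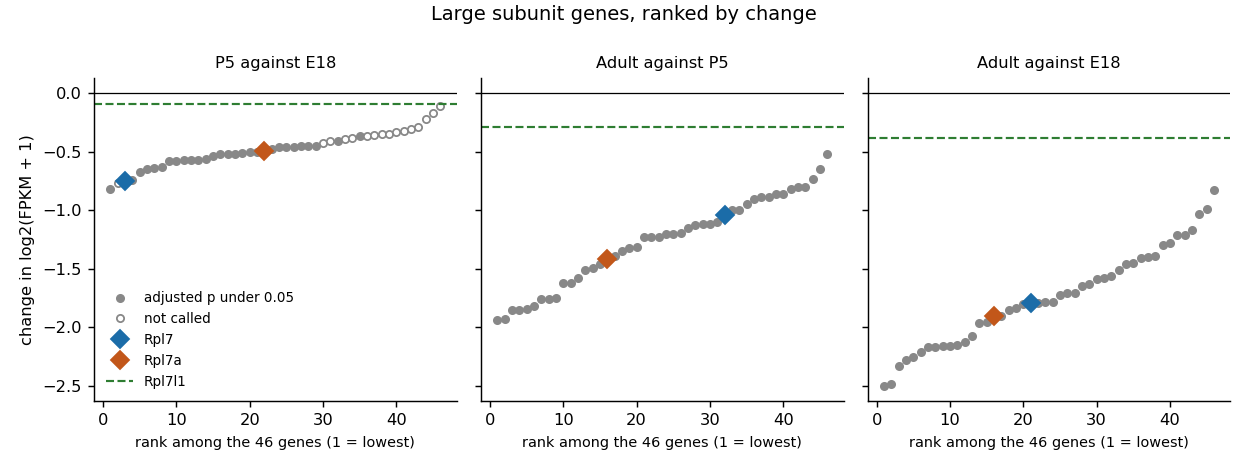
Change in log2(FPKM + 1) of 46 large subunit genes, ranked from the lowest, in the 3 comparisons (filled circles called at an adjusted p under 0.05, open circles not called). Diamonds mark Rpl7 (ranks 3, 32 and 21) and Rpl7a (ranks 22, 16 and 16), and the dashed line gives the change of Rpl7l1 (-0.09, -0.29 and -0.38), which lay above all 46 genes.

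Rpl7l1 was set beside other paralogs of ribosomal proteins and beside assembly factors of the large subunit. Of 10 paralogs sought by symbol, 5 were tested. Between E18 and P5 limma called 0 of the 5 (0 at an unadjusted p under 0.05), and 1 without P5 library b (Rpl22l1, 0.70, adjusted p = 0.0442). Between P5 and Adult, Rps27l (-1.68), Rpl36al (-1.44), Rpl22l1 (-0.86) and Rps4l (-0.61) fell, and Rpl7l1 (-0.29) was not called and had the smallest change. From E18 to Adult, Rps27l (-1.89), Rpl36al (-1.53), Rps4l (-0.63) and Rpl7l1 (-0.38) fell, and Rpl22l1 (-0.50, limma adjusted p = 0.083) was not called. Of all genes, 4.95% were called lower from E18 to P5, and 33.7% and 34.4% in the Adult comparisons. Rps27l and Rpl36al were called in both comparisons under each of the scalings TPM, protein-coding sum and quantile normalization, while Rps4l, Rpl22l1 and Rpl7l1 were called in neither with the protein-coding sum or quantile normalization. Without Adult replicate 1, fewer of the 5 paralogs were called in each Adult comparison. The same held from E18 to Adult without E18 replicate 1 or 2. Fewer of all genes were called in these fits too.

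Of the 52 assembly factors of the large subunit, Rpl7l1 among them, limma called 0 from E18 to P5, with 13 at an unadjusted p under 0.05 and a median log2 change of -0.13. In Adult against P5, 28 fell and 3 rose (median -0.47), and against E18, 32 fell and 2 rose (median -0.58), beside medians of -0.07 and -0.11 for all genes. Of all genes, 33.7% and 34.4% were lower and 26.2% and 25.3% higher in these comparisons. Nsa2, which acts in early large subunit assembly, had the lowest change from P5 to Adult (-1.94, limma adjusted p = 8.3e-05), and Npm1, a major nucleolar protein, fell by 0.88 (adjusted p = 0.00057). Mdn1, the ATPase that removes assembly factors, rose by 0.59 (adjusted p = 0.0197). Rpl7l1 ranked 32 from the lowest in both Adult comparisons. With TPM, 45 factors fell and 0 rose from P5 to Adult, and with the protein-coding sum 16 fell and 9 rose. Of all 14390 genes, 8603 were called lower and 1709 higher with TPM. With the protein-coding sum, 3347 were lower and 5282 higher, so the counts over all genes moved with scaling too. Nsa2, Npm1 and Mdn1 were chosen for naming after their values were seen.

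Rpl7a lies in the surfeit locus, a tight cluster of unrelated genes. Med22, a subunit of the Mediator complex, starts 86 bases upstream on the other strand, and Surf1, an assembly factor of cytochrome c oxidase, ends 62 bases downstream on the other strand. Of the 6 listed neighbours, 2 fell, 1 rose and 3 were not called from P5 to Adult, beside 33.7% of all genes lower and 26.2% higher. Med22 stood at 39.84 and 40.06 FPKM at E18, then 22.85 and 36.98 FPKM at P5, then 27.61 and 29.4 FPKM in Adult, and was not called in any comparison (log2 change from E18 to Adult -0.47, limma adjusted p = 0.0977). That change was called with only the 2 ages fitted (0.00785), with the replicate block (0.019), without P5 library a or b (0.00785 and 0.00817) and with TPM (-1.09, adjusted p = 0.00469). Med22 was also called from P5 to Adult without P5 library a (-0.36, adjusted p = 0.0354) or with TPM (-0.77, adjusted p = 0.0194), and from E18 to P5 without P5 library b (-0.78, adjusted p = 0.0442). Surf1 stood at 23.3 and 25.68 FPKM at E18, then 26.88 and 24.78 FPKM at P5, then 44.84 and 42.66 FPKM in Adult, and rose by 0.74 from P5 to Adult (adjusted p = 0.00164). With TPM the Surf1 change was 0.01 and not called, and with the other scalings it stayed positive and called. Surf6, a nucleolar protein, fell by 0.77 from P5 to Adult (adjusted p = 0.00165) and was called lower under each scaling. Surf4 fell by 0.52 (adjusted p = 0.0101), a call lost with the protein-coding sum, quantile normalization (0.222 and 0.0671) and without Adult replicate 1 (0.0502). Its direction turned when only annotated isoforms were summed, with log2 changes of 0.66 from P5 and 0.65 from E18 to Adult (adjusted p = 0.0036 and 0.00365). Surf2 (-0.40, adjusted p = 0.056) and Rexo4 (0.23, adjusted p = 0.194) were not called from P5 to Adult. Surf2 was called lower with TPM (-1.13), with annotated isoforms only (-0.50) and without P5 library b (-0.58). Rexo4 was called lower with TPM (-0.50) and higher with the protein-coding sum (0.54), quantile normalization (0.39) and without P5 library a (0.38). Between E18 and P5 limma called 0 of these 6 genes (0 at an unadjusted p under 0.05). The 3 small nucleolar RNA genes annotated in introns of Rpl7a were not analysed here.

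The genes whose course was most like that of each member were ranked by the Euclidean distance between log2(FPKM + 1) profiles over the 6 libraries, each centred on its mean, among 13928 tested genes other than predicted genes and small RNAs. The 5 nearest to Rpl7 were Ptma (0.143), Kidins220 (0.190), Rpl5 (0.205), Fem1b (0.206) and Slc9a9 (0.206). Ptma, which encodes the nuclear protein prothymosin alpha, stood at 566.1 and 615.0 FPKM at E18, then 353.5 and 370.5 FPKM at P5, then 163.6 and 164.3 FPKM in Adult. The 5 nearest to Rpl7a were the pseudogenes Rpsa-ps10 (0.083) and Rpl17-ps10 (0.099), then H2-M5 (0.118), Rpl17 (0.138) and Agrn (0.141). H2-M5 was low, with means of 3.476 FPKM at E18, 2.109 FPKM at P5 and 0.2294 FPKM in Adult. In proportion it fell further than Rpl7a, and adding 1 FPKM shrinks the change of such a low gene. Rpl17-ps10 stood at 71.18 and 73.27 FPKM at E18 and 17.17 and 17.61 FPKM in Adult, close to its parent gene Rpl17 at 60.05 and 62.74 FPKM and 14.58 and 15.71 FPKM. The 5 nearest to Rpl7l1 were Tor1a (0.070), Aff4 (0.079), Arl2bp (0.085), Ilkap (0.092) and Hp1bp3 (0.093), and none of these is a ribosomal protein gene. Tor1a, the torsin ATPase of the endoplasmic reticulum, stood at 23.89 and 23.68 FPKM at E18, then 20.26 and 22.88 FPKM at P5, then 17.31 and 17.59 FPKM in Adult. Distances over 6 libraries of 3 ages describe these libraries only, and a small distance is easily reached by a gene that changes little.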

How the data were processed

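The authors deposited one table of isoform FPKM for 6 libraries. Per the submitters' processing notes, reads were mapped to mm10 (GRCm38) with HISAT2 and abundances came from Cufflinks and Cuffdiff; versions and any scaling between libraries are not given in the sources used here. Every listed isoform reaches 1.00 FPKM in some library, and 0.0001 stands in place of 0. A further 9 columns of per-sample values were not used here.

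A gene level is the sum of FPKM over isoforms with its symbol. Linear models of log2(FPKM + 1) came from limma 3.58.1 under R 4.3.3 (age as factor, all 6 libraries, eBayes with a trend, 3 residual degrees of freedom) for genes and isoforms with a mean of at least 1 FPKM. Isoform shares, in percent of the gene, were fitted likewise for genes with at least 2 isoforms and 1 FPKM in every library, at mean shares between 1% and 99%. Tests were two-sided with Benjamini-Hochberg adjustment over all features of a comparison, and called under 0.05. Nothing in the labels says that libraries came from separate animals, so the p-values reflect only how far these samples spread, which may be technical. In simulated data, 100 features were changed by each amount and all others had no age effect. Between E18 and Adult, changes of 1 and 2 in log2 were recovered for 60% and 94% of genes (14390 genes). They were recovered for 5% and 65% of isoforms (34941), and share changes of 20 and 50 points for 14% and 74% (38813 shares). In the data 34.4% of genes were called lower and 25.3% higher in that comparison. The adjustment therefore acts differently there, and these percentages are not the rates of recovery in the data.

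The members and gene lists were chosen with earlier results of these data known. Named genes are the members and their isoforms, surfeit locus genes, paralogs, the large subunit genes ranked next to a member, and the 5 genes most alike in course; 1 gene ranked next to a member is not reported here. A further 3 assembly factors were named after their values were seen. Sequences and gene models come from GENCODE M21, and 1 gene start from RefSeq (GRCm38). Alternatives were other pseudocounts, filters, scalings, shares, subsets of libraries and a replicate block.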

Additional observations from a re-analysis of the deposited data

How the results depend on the processing

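Rpl7 and Rpl7a were lower in Adult than at either younger age, with an adjusted p under 0.05, in every alternative run, and kept a negative change from E18 to P5. With 1 library left out, the E18 to P5 change lay between -0.812 and -0.6925 for Rpl7 (call lost without 3 of the libraries) and between -0.5097 and -0.4609 for Rpl7a (call lost without any 1). With TPM the change of Rpl7a was -0.354 (adjusted p = 0.0541). Rpl7l1 depended on scaling. Its change from E18 to Adult was -0.0279 with the protein-coding sum and -0.2979 with quantile normalization, neither called, and between -0.395 and -0.3552 with 1 library left out, with the call lost without any 1 E18 or Adult library. From P5 to Adult it was -1.016 with TPM (called), 0.01908 with the protein-coding sum and between -0.3936 (called, without P5 library a) and -0.1812 with 1 library left out. From E18 to P5 it was 0.03878 with TPM and between -0.1939 and 0.01853 with 1 library left out, and the single isoform gave the same values. The direction of the Rpl7l1 change thus turned with some scalings and, from E18 to P5, also without P5 library a. The cause was not tested.

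The share of Rpl7a 914 was lower in Adult in every alternative, but its call was often lost. From E18 to Adult the change of -16.22 points had an adjusted p of 0.0559 without a filter and 0.0901 with only the 2 ages fitted, and it lay between -20.53 and -11.91 with 1 library left out. From P5 to Adult the change of -18.59 points had an adjusted p of 0.0897 with only the 2 ages fitted, and it lay between -22.9 and -14.28 with 1 library left out. Shares of fragments (FPKM times length), chosen after the data had been seen, kept both calls. Over the whole table the share test called 5962 isoforms from P5 to Adult, 0 if P5 library a or either of the E18 replicates was left out, and 0 with only the 2 ages fitted.

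Several minor results changed sign, none of them called with all 6 libraries as deposited. With TPM the P5 to Adult change was -0.4457 for Rpl7 1597, -0.01946 for Rpl7 421 and -0.4018 for Rpl7 784. With the protein-coding sum it was 0.04916 for Rpl7a 1032, 0.2534 for Rpl7a 1043, 0.04517 for Rpl7a 1345 and 0.01908 for Rpl7l1 2606. On a log ratio, the E18 to P5 share change of Rpl7a 920 was 0.01524. With 1 library left out, the P5 to Adult change ranged from -0.4414 to 0.6773 for Rpl7 1597, from -0.9792 to 0.4142 for Rpl7 1876, from -0.4352 to 0.8259 for Rpl7 421, from -0.4112 to 0.3699 for Rpl7a 1043 and from -0.443 to 0.01054 for Rpl7a 1345, and the E18 to Adult change of Rpl7 1876 from -1.307 to 0.0863. Share changes in points ranged, from E18 to P5, from -2.878 to 5.468 for Rpl7 1163, from -4.507 to 3.861 for Rpl7 956, from -0.3426 to 1.029 for Rpl7a 1032, from -1.364 to 1.007 for Rpl7a 1043 and from -0.5051 to 0.1847 for Rpl7a 920. From E18 to Adult they ranged from -0.04316 to 1.736 for Rpl7 1597 and from -0.5433 to 4.145 for Rpl7a 920, and from P5 to Adult from -0.3831 to 4.305 for Rpl7a 920.

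The replicate numbers of E18 and Adult were used as a replicate block. The differences between replicates 1 and 2 had r = 0.018 between these ages over 14390 genes, so with 2 pairs nothing shows that the numbers pair the libraries. With the replicate block the E18 to Adult change of Rpl7l1 was -0.3751 (adjusted p = 0.0518) and that of the Rpl7a 914 share -16.22 (0.137), and the block called 8056 genes in place of 8588 and 0 shares in place of 5142. Over all genes, 1507 were called from E18 to P5, 10 without P5 library a, 28 without replicate 1 of E18, 117 without replicate 2 of E18, and 696 with only the 2 ages fitted. From P5 to Adult 4843 genes were lower and 3767 higher, against 8603 and 1709 with TPM and 3347 and 5282 with the protein-coding sum. FPKM without counts give no depth, so no limit of detection can be stated.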
